A study of Homo sapiens with 18 samples.

Results

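The 47 genes described here belong to the interferon and NF-kB responses. They are the interferon signalling factors, the sensors of double-stranded RNA, the interferon-stimulated effectors and a group of NF-kB subunits, regulators and targets. They were taken by name from the count table, which holds 25369 gene symbols, and all 47 were present. The question was whether hairpin RNA set off an innate response in these cells. Of the 47, 29 had enough counts to be tested and 18 did not, and the latter are given by their raw counts.

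The cells were D425 and D458, established lines labelled as Group 3 medulloblastoma, a childhood tumour of the cerebellum. D425 cells received a non-targeting control hairpin, EYA2 hairpin 6 or EYA2 hairpin 8, and D458 cells the control hairpin, EYA2 hairpin 7 or EYA2 hairpin 8. EYA2 encodes a transcriptional coactivator with phosphatase activity. Each of the 6 groups had 3 libraries, labelled as biological replicates, of polyA RNA. All 6 groups shared the rest of the treatment: puromycin selection (1 µg/mL, 48 h), sorting of the top 10% by the zsGreen reporter carried on the hairpin vector, and 24 h of recovery. Control cells therefore also carried a hairpin vector and a hairpin RNA, and a response common to every hairpin would not appear in a comparison with them. Only the levels themselves bear on such a response.

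Double-stranded RNA in the cytoplasm is sensed by the helicases RIG-I (gene DDX58) and MDA5 (IFIH1), which signal through IRF3 and IRF7 to switch on the interferon genes. Secreted type I interferon then acts on the same and on neighbouring cells through a complex of STAT proteins with IRF9, which binds the interferon-stimulated response element and raises effectors such as the MX, OAS, IFIT and ISG15 genes. The same sensors, and cytokines such as TNF, also release NF-kB dimers (RELA, RELB and the products of NFKB1 and NFKB2), whose targets include their own inhibitors NFKBIA and TNFAIP3. Short hairpin RNA is known as a possible trigger of these sensors.

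Library totals ran from 21260369 to 31552051 counts. Levels are CPM (counts scaled to library size, here with TMM factors), given per library in the order of replicates 1, 2 and 3, or as mean ± SD (n = 3). Calls were made at an adjusted p below 0.05 (Benjamini-Hochberg, 14850 genes) from the quasi-likelihood test of edgeR, which gave every adjusted p in the text unless another tool is named. Changes are log2 fold changes ± standard error. EYA2 itself changed by -1.24 ± 0.27 (adjusted p = 0.00693) with hairpin 6 and -0.98 ± 0.27 (adjusted p = 0.0170) with hairpin 8 in D425, where the hairpin 8 groups overlapped and the call was lost without control replicate 1 or hairpin 8 replicate 2 or 3 (highest adjusted p = 0.0865). D458 cells showed a change in EYA2 of -1.79 ± 0.27 (adjusted p = 0.000506) with hairpin 8, and hairpin 7 gave -0.55 ± 0.26 (adjusted p = 0.137), which passed with the replicate number as a block (adjusted p = 0.00692). The 8 Group 3 medulloblastoma markers summed to 5425 to 6229 CPM in D425 controls, 4509 to 5152 with hairpin 6 and 4271 to 5026 with hairpin 8, so the D425 hairpin libraries lay below the controls. In D458 they summed to 6305 to 6823 CPM in controls, 5605 to 6471 with hairpin 7 and 5286 to 6477 with hairpin 8. Of 7 tested markers, 1 was higher and 1 lower with D425 hairpin 6, 2 higher and 2 lower with D425 hairpin 8, and 1 higher with each D458 hairpin. The part of this change in the results below was not tested. NPR3 stood at no more than 6 counts over the 3 libraries of any group.

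The proximal promoters were read for sequence that these genes share. Promoters were matched for 37 of the 47 genes (RefSeq, build GRCh38.p14, 250 bases upstream of the start). Of all words of 8 letters, read on both strands, the one whose share among the 29 matched interferon genes most exceeded its share among all genes was AACTGAAA. It lay in 10 of these 29 promoters and in 3 of the 8 matched NF-kB promoters, against 1.71% of 27305 genes. The word was picked for this excess, after the data had been seen, so its counts are a description. The next words in that ranking, AAACTGAA and GAAACTGA, overlap it and lay in 10 and 9 of the 29. The windows below run 5′ to 3′ on the gene's strand, with the word or its reverse complement in capitals. LGALS3BP, the gene called with every EYA2 hairpin, is shown first and lacks the word (1 listed promoter, chr17:78979924-78980173 (minus strand)). IRF9 at chr14:24161015-24161264 (plus strand), BST2 at chr19:17405631-17405880 (minus strand) and IFI44 at chr1:78649539-78649788 (plus strand) hold it and were called higher with at least 1 hairpin. RSAD2 at chr2:6877527-6877776 (plus strand) holds it and had too few counts to be tested. The windows of IFI44 and RSAD2 are 1 of 2 listed promoters each.
LGALS3BP: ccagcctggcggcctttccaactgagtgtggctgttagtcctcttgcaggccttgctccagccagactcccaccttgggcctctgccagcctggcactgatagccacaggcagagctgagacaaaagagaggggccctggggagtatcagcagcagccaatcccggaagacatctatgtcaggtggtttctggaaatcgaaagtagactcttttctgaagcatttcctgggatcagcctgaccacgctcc
IRF9: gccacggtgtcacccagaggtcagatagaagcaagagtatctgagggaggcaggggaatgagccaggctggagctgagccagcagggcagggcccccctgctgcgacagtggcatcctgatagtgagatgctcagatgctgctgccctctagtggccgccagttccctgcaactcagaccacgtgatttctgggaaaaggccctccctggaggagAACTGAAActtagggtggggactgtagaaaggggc
BST2: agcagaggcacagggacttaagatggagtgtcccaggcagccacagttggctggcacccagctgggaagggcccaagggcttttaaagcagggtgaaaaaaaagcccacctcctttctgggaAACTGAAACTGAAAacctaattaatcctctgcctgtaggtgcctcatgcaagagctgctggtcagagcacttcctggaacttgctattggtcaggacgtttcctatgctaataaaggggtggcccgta
IFI44: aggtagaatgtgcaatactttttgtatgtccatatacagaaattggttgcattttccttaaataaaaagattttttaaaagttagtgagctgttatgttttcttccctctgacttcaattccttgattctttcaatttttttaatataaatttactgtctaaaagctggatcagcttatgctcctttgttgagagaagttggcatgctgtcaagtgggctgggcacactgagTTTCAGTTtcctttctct
RSAD2: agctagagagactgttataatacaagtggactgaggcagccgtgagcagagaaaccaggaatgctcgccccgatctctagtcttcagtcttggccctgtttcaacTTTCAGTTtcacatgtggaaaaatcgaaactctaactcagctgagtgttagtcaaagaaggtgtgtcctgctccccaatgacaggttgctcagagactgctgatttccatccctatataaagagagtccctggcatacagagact
Of the 13 genes with the word, 7 had too few counts to be tested. A match is a stretch of letters and does not show that a factor was bound. Lack of the word likewise does not show that a promoter lacks the interferon-stimulated response element, which was not searched for.

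The interferon genes and MX1, OAS1, OAS2, OASL and XAF1, all classical interferon targets, were close to silent in all 18 libraries, controls included. The table lists 22 interferon genes, and 19 of them had 0 counts in every library. The other 3 (IFNA5, IFNL1 and IFNL4) had 6 counts in total over all libraries, and IFNB1, the first type I interferon made after RNA sensing, had none. The 5 targets were picked by their counts: they are the genes of the set with at most 3 counts in every library. Their silence therefore does not describe the other interferon targets of the set. IFI44L reached 91 counts in a D458 hairpin 8 library, and IFITM3 averaged 32.3 CPM in the D425 controls. OAS1 and OASL, an activator of RNase L and its relative, had 1 count each over all 18 libraries. A count of 0 in a library allows up to 3 counts, which is 0.0953 to 0.147 CPM at these depths. The limit holds for the libraries at 0 and not for those with a count. Such limits cover counting error only.

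Among the genes below the filter, IFIT1 in D425 and IRF7 in D458 passed when no filter was applied. It had 0, 2 and 0 counts in the D425 control libraries, 2, 2 and 2 with hairpin 6 and 9, 6 and 10 with hairpin 8. IFIT1 binds viral RNA that lacks cellular cap methylation. The hairpin 8 libraries lay above all 3 controls, with a ratio of 12.3 (exact 95% counting interval 3.08 to 108), and the gene passed with edgeR when no filter on low counts was applied (adjusted p = 0.0187). In D458 the counts of IFIT1 were 0, 1 and 2 in controls, 7, 6 and 4 with hairpin 7 and 5, 1 and 1 with hairpin 8. IRF7, the factor that amplifies interferon production, was at 0 in all 6 control libraries, at 0 to 2 counts in the D425 hairpin libraries, at 6, 5 and 2 counts with D458 hairpin 7 and at 5, 7 and 2 with D458 hairpin 8. Those groups were at least 1.43-fold and 1.42-fold higher than the D458 controls, taking 3 counts per control library as the floor, and both passed without the filter (adjusted p = 0.0250 and 0.0243).

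The other untested genes gave counts as low. IFIT2 reached at most 5 counts in a library, IFIT3 10, IFIT5 12, ISG20 10, DHX58 11, OAS3 7, SAMD9 4, RSAD2 6, PARP9 7 and PARP14 16. ISG20, an RNA exonuclease, had 0, 0 and 2 counts in D425 controls, 2, 6 and 10 with hairpin 6 (9.52-fold, exact 95% counting interval 2.28 to 84.6) and 3, 1 and 4 with hairpin 8. In D458 it had 2, 0 and 1 in controls, 6, 2 and 3 with hairpin 7 and 6, 3 and 5 with hairpin 8 (4.27-fold, interval 1.19 to 23.2 for hairpin 8). OAS3 had 12 counts over the D425 hairpin 6 libraries against 2 in controls (6.35-fold, interval 1.41 to 58.4), and PARP9 14 with D458 hairpin 8 against 1 (12.8-fold, interval 1.95 to 542). These intervals cover counting error within the summed libraries and not the spread between them. None of these 10 genes passed without the filter in any of the 4 hairpin comparisons in edgeR. RSAD2, the antiviral enzyme viperin, had 6, 1 and 2 counts in the D425 controls against 0, 0 and 2 with hairpin 6 and 0, 0 and 1 with hairpin 8. MX2 had 50, 5 and 6 counts in the D425 controls, so its highest count of all 18 libraries was in a control library, against 6, 4 and 1 with hairpin 6 and 13, 2 and 9 with hairpin 8.

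**Figure D1:**
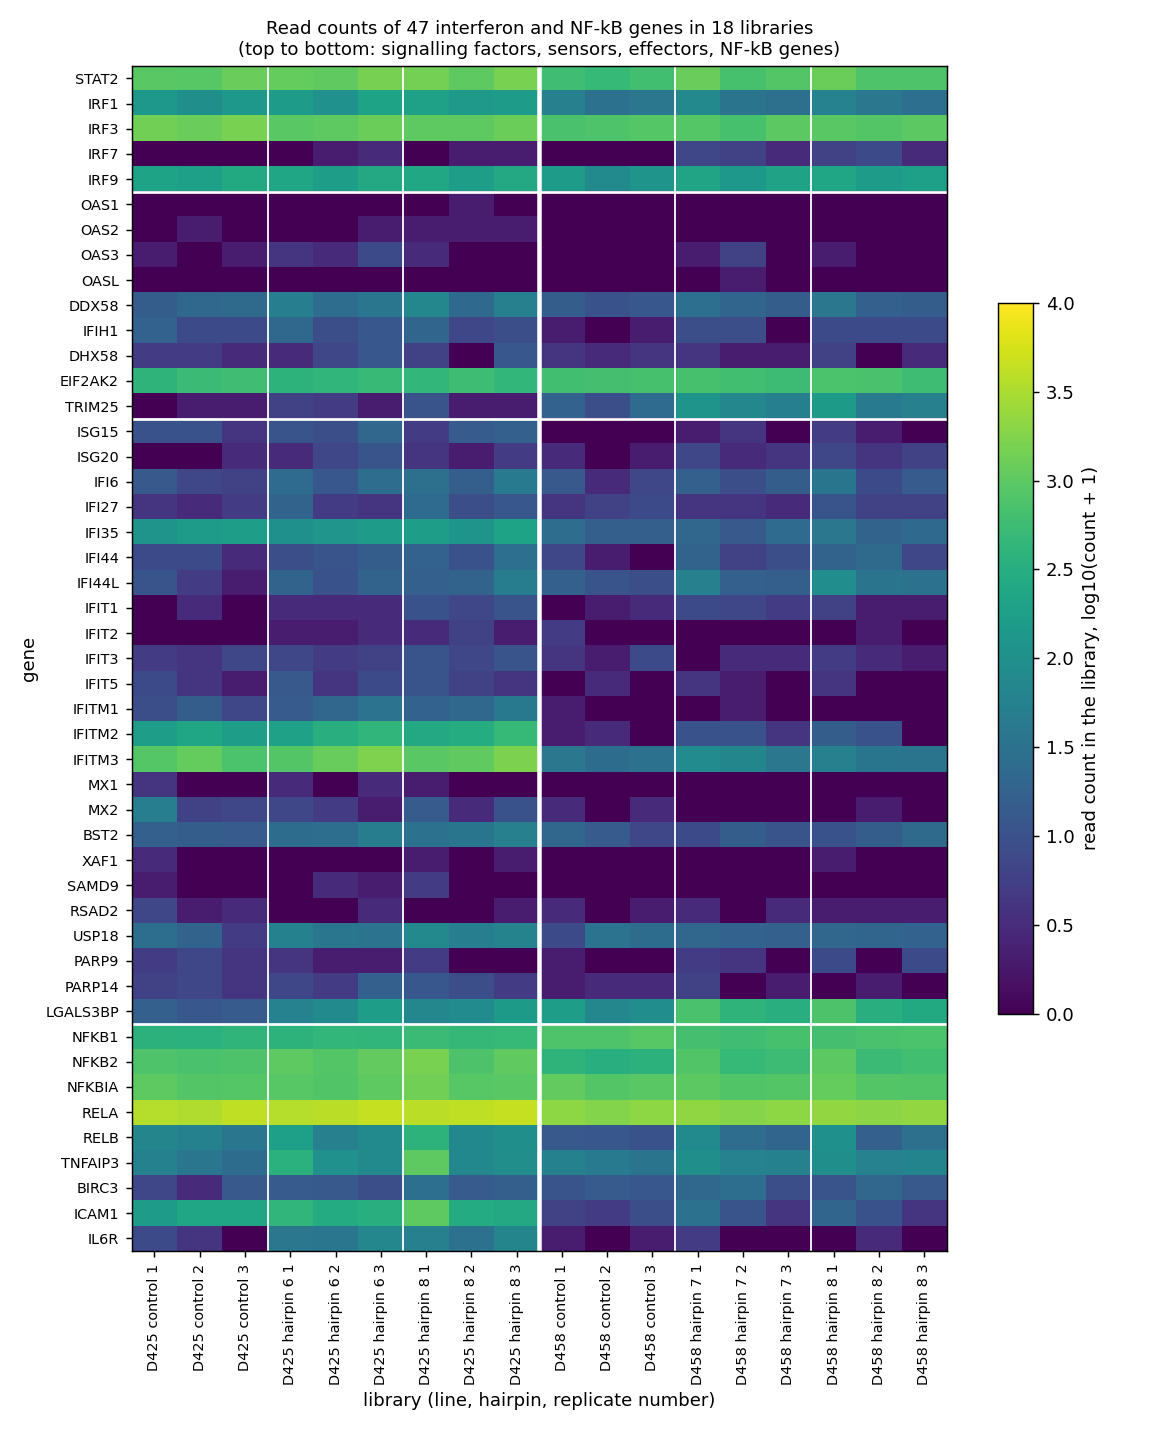
Read counts of the 47 genes (rows, in the order signalling factors, sensors, effectors and NF-kB genes) in the 18 libraries (columns, by line, hairpin and replicate number), coloured by log10(count + 1). The OAS, MX1 and XAF1 rows are dark in every library, the IFITM1, IFITM2 and IFITM3 rows are brighter in D425 than in D458, and LGALS3BP is brighter with the EYA2 hairpins of both lines.

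Of the 29 tested genes, 2 were called with D425 hairpin 6, both higher, and 11 with D425 hairpin 8, 10 higher and 1 lower. In D458 the counts were 6 with hairpin 7 (5 higher, 1 lower) and 8 with hairpin 8 (7 higher, 1 lower). Among all 14850 genes, 14.1%, 21.7%, 22.6% and 23.2% were called in these 4 comparisons. Of all genes 7.31%, 11.6%, 11.5% and 12.1% were called higher and 6.84%, 10.1%, 11.1% and 11.1% lower. The called shares of the tested genes were 6.90%, 37.9%, 20.7% and 27.6%. In D425 the share was thus below that of all genes with hairpin 6 and above it with hairpin 8. In D458 the share called in either direction was near that of all genes with both hairpins. By direction the D458 calls leaned higher: 5 higher and 1 lower with hairpin 7, and 7 higher and 1 lower with hairpin 8. All genes were called higher and lower at 11.5% and 11.1% with hairpin 7, and at 12.1% and 11.1% with hairpin 8. Genes with few counts that passed the filter only through their hairpin libraries had to be higher there, so these shares, and the medians given for the tested genes, describe the genes that passed and not all 47.

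Same-numbered libraries share a run label, and with the replicate number as a block the counts rose to 11 (10 higher), 18 (17 higher), 10 (9 higher) and 12 (11 higher). The background rose as well, to 27.8%, 37.2%, 40% and 39.6% of all genes. The shares of the 29 genes with the block were 37.9%, 62.1%, 34.5% and 41.4%. With D425 hairpin 6 the share thus turned from below to above that of all genes, and with D425 hairpin 8 it stayed above. With D458 hairpin 8 it stayed near that of all genes, while with D458 hairpin 7 it lay below. No call was lost with the block. The blocked adjusted p of each added gene was 0.00321 to 0.0498 with D425 hairpin 6, 0.00322 to 0.0479 with D425 hairpin 8, 0.0112 to 0.0469 with D458 hairpin 7 and 0.00306 to 0.0360 with D458 hairpin 8. STAT2, NFKB2, IFI6, BST2, DDX58, USP18, IFITM2 and TNFAIP3 were added as higher and IRF3 as lower with D425 hairpin 6. The additions with D425 hairpin 8, all higher, were STAT2, NFKB2, RELB, BIRC3, IFI44, IFITM1 and IFITM2. IFITM2 and RELB were added in both D458 comparisons, with IFI44 and IFIH1 for hairpin 7 and IFI6 and IRF9 for hairpin 8.

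The median log2 change of the tested genes was 0.87 with D425 hairpin 6, 1.30 with D425 hairpin 8, 0.71 with D458 hairpin 7 and 0.54 with D458 hairpin 8, against 0.01 to 0.02 over all genes tested. Without the genes that had 3 counts or fewer in one of the groups, the medians were 0.85, 1.06, 0.65 and 0.43. Low expression went with higher medians in general. Among all genes averaging under 1 CPM the medians were 0.27, 0.43, 0.49 and 0.48, and the 10 tested genes at that level had 1.24, 1.57, 0.89 and 0.78. At 10 CPM or more the 8 genes of the set had medians of 0.19, 0.27, 0.04 and 0.04, against -0.02, -0.03, -0.06 and -0.06 over all genes. These level ranges were chosen after the data had been seen. In bulk RNA, more cells expressing a gene and more RNA per cell cannot be told apart.

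**Figure D2:**
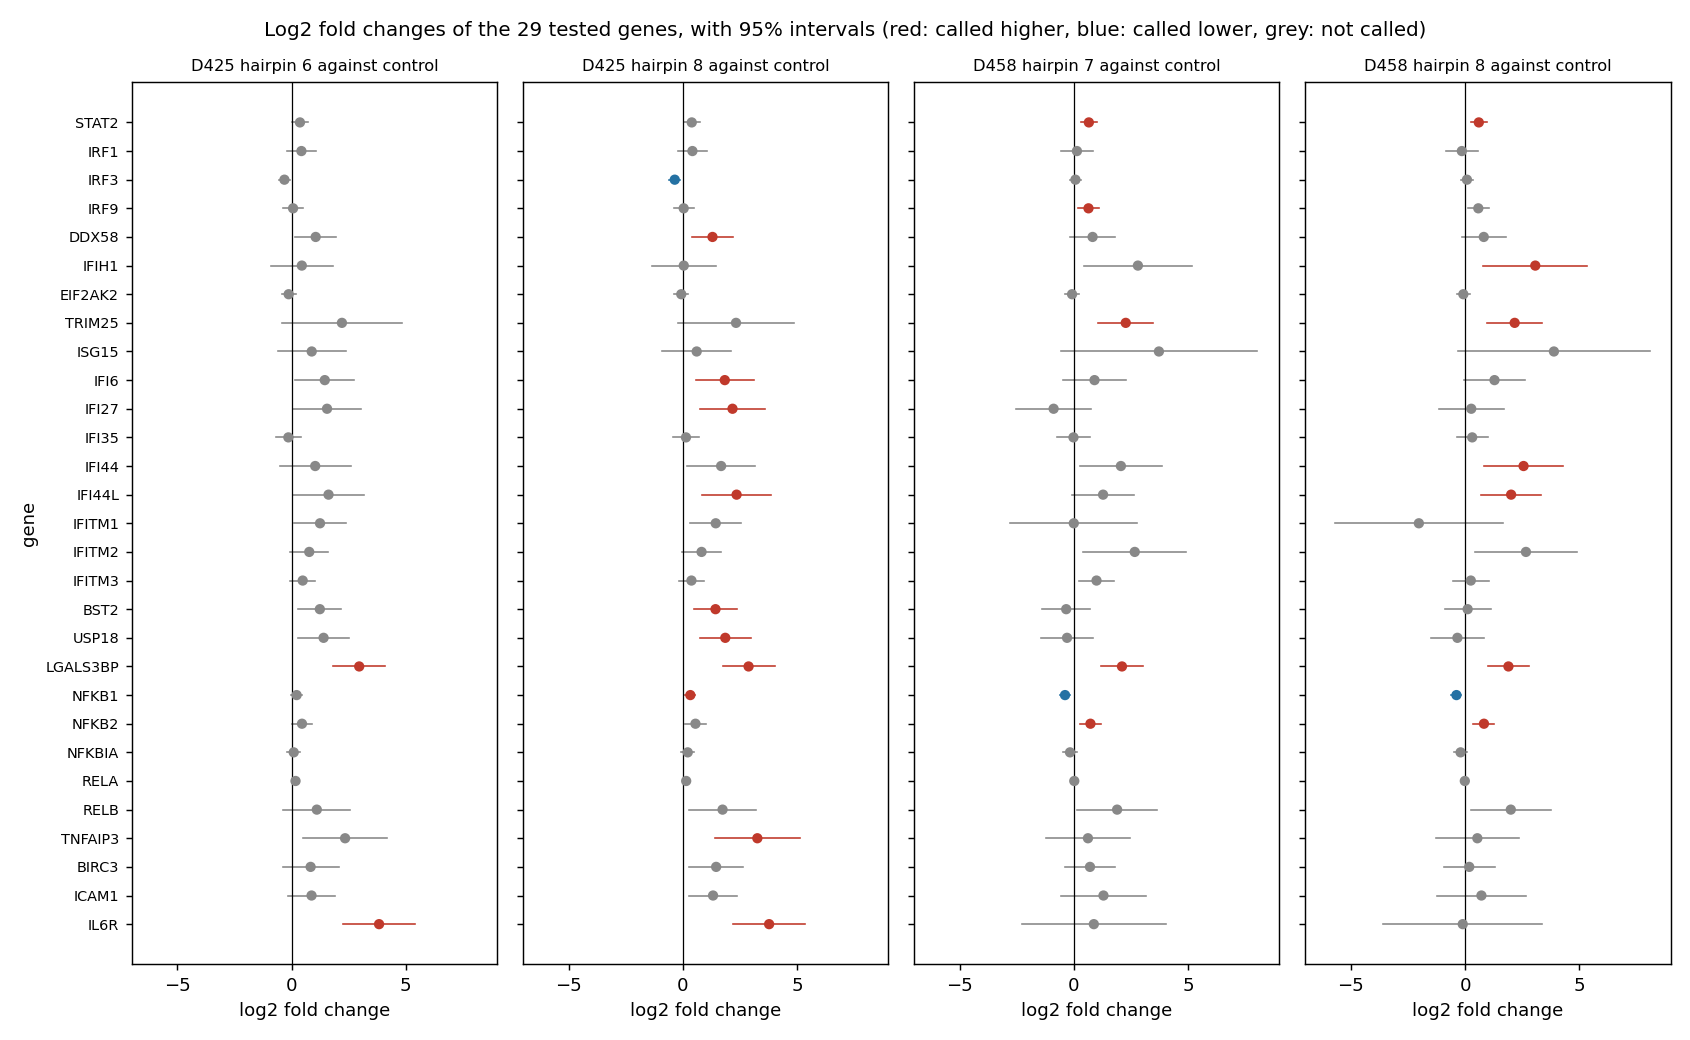
Log2 fold change against the control of the same line (x axis) for the 29 tested genes (y axis), 1 panel per hairpin group, with 95% intervals. Red marks genes called higher and blue genes called lower: 2 and 0 with D425 hairpin 6, 10 and 1 with D425 hairpin 8, 5 and 1 with D458 hairpin 7, and 7 and 1 with D458 hairpin 8.

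Of the 4 tested signalling factors, 0 were called with D425 hairpin 6, 1 with D425 hairpin 8 (lower), 2 with D458 hairpin 7 and 1 with D458 hairpin 8 (all higher). STAT2, the part of the interferon complex that carries its activation domain, rose with both D458 hairpins. Its levels were 26.7, 23.6 and 26 CPM in the D458 controls, 49.6, 32.9 and 37.6 with hairpin 7 and 48.1, 34 and 33.9 with hairpin 8. All 6 hairpin libraries lay above the 3 controls, and the changes were 0.66 ± 0.17 (adjusted p = 0.0119) for hairpin 7 and 0.60 ± 0.17 (adjusted p = 0.0175) for hairpin 8. The hairpin 7 call was lost without hairpin 7 replicate 1, and the hairpin 8 call without control replicate 2 or hairpin 8 replicate 1 (highest adjusted p = 0.0768 and 0.105). In D425, STAT2 stood at 34.6, 33.7 and 38.3 CPM in controls, 45.5, 40.2 and 51.4 with hairpin 6 and 48.1, 37.8 and 54 with hairpin 8. There the changes of 0.36 ± 0.16 (adjusted p = 0.160) and 0.39 ± 0.16 (adjusted p = 0.0977) were not called, and they passed with the replicate block (adjusted p = 0.00667 and 0.00322). The change with hairpin 8 did not differ between the lines beyond its error (D458 minus D425, 0.21 ± 0.23, adjusted p = 0.603, 95% interval -0.28 to 0.71).

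IRF9, the DNA-binding partner of STAT2, was called with D458 hairpin 7, at 8.09 ± 1.45 CPM against 5.19 ± 1.58 in controls (0.64 ± 0.21, adjusted p = 0.0414). That call was lost without control replicate 2 or 3 or hairpin 7 replicate 1 or 3 (highest adjusted p = 0.147). With D458 hairpin 8 it stood at 7.78 ± 0.851 CPM (0.58 ± 0.21, adjusted p = 0.0586), and passed with the replicate block (0.60 ± 0.14, adjusted p = 0.00306) and in DESeq2 (adjusted p = 0.0304). In D425 its change was 0.06 ± 0.21 with hairpin 6 and 0.04 ± 0.21 with hairpin 8. IRF3, the factor that RNA sensing activates directly, fell with D425 hairpin 8, from 50.9, 46.1 and 50.4 to 34.3, 37.5 and 43.7 CPM (-0.35 ± 0.11, adjusted p = 0.0371). With hairpin 6 it stood at 36.9, 39.6 and 41.9 CPM, also below every control (-0.32 ± 0.11, adjusted p = 0.0757), and passed with the block (-0.32 ± 0.09, adjusted p = 0.0142). IRF3 is activated by phosphorylation of its protein, which these data do not measure. IRF1, a target and factor of interferon gamma signalling, was not called with any hairpin, with changes from -0.14 to 0.43.

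Of the 4 tested RNA sensors and partners, 0, 1, 1 and 2 were called in the same order of groups, all higher. TRIM25, the ubiquitin ligase that helps activate RIG-I, rose with both D458 hairpins. It stood at 0.755, 0.391 and 1.00 CPM in the D458 controls, 4.77, 3.35 and 2.37 with hairpin 7 and 5.68, 1.83 and 2.29 with hairpin 8. The groups did not overlap, and the changes were 2.27 ± 0.57 (adjusted p = 0.0109) and 2.18 ± 0.57 (adjusted p = 0.0133). Each call was lost without control replicate 2 or without replicate 1 of its hairpin group (highest adjusted p = 0.0573 and 0.0932). D425 cells held little TRIM25 RNA, with 0, 1 and 1 counts in controls, 5, 4 and 1 with hairpin 6 and 10, 1 and 1 with hairpin 8, and it was not called there.

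DDX58, which encodes RIG-I, rose with D425 hairpin 8, from 0.512, 0.783 and 0.730 to 2.33, 0.805 and 1.87 CPM (1.30 ± 0.42, adjusted p = 0.0364). With hairpin 6 it stood at 2.02, 1.01 and 1.20 CPM (1.05 ± 0.42, adjusted p = 0.113), and passed with the replicate block (adjusted p = 0.0430). In D458 the changes of 0.82 ± 0.46 and 0.82 ± 0.46 were not called. IFIH1, which encodes MDA5, was called with D458 hairpin 8 on very few counts: 1, 0 and 1 in controls, 8, 8 and 0 with hairpin 7 and 7, 7 and 7 with hairpin 8. The summed hairpin 8 counts were 9.61-fold those of the controls (exact 95% counting interval 2.35 to 84.6, edgeR adjusted p = 0.0484), and leaving out any 1 of the 6 libraries lost the call. EIF2AK2, the kinase PKR that stops translation when it binds double-stranded RNA, was not called with any hairpin and changed by -0.13 to -0.07, with 95% intervals between -0.43 and 0.23.

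The 12 tested effectors held 1, 6, 1 and 3 called genes in the same order of groups, all higher. LGALS3BP, a secreted glycoprotein that binds galectins, rose with every EYA2 hairpin. In D425 it stood at 0.585, 0.410 and 0.413 CPM in controls, 2.29, 3.15 and 5.51 with hairpin 6 and 2.30, 3.07 and 5.07 with hairpin 8. In D458 the levels were 7.55, 3.42 and 3.71 CPM in controls, 29.6, 18.8 and 14.9 with hairpin 7 and 29, 14.5 and 11.3 with hairpin 8. Every hairpin library lay above every control of its line. The changes were 2.96 ± 0.54 (adjusted p = 0.00196) and 2.88 ± 0.54 (adjusted p = 0.00158) in D425, and 2.11 ± 0.43 (adjusted p = 0.00355) and 1.90 ± 0.42 (adjusted p = 0.00589) in D458. All 4 calls remained whichever single library of the compared groups was left out. Without replicate 2 of every group they were lost (adjusted p = 0.0556 to 0.093), and without replicate 3 the call with D425 hairpin 6 was lost (adjusted p = 0.0734).

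LGALS3BP was the only one of the 29 tested genes called in all 4 comparisons without the replicate block. Its hairpin 8 change did not differ between the lines beyond its error (-0.98 ± 0.68, adjusted p = 0.378, 95% interval -2.43 to 0.47, D458 minus D425), and it passed as smaller in D458 with the replicate block (-0.99 ± 0.32, adjusted p = 0.0323). Genes called higher with both hairpins made up 6.48% of all tested genes in D425 and 9.28% in D458, and genes called lower with both 5.94% and 8.64%. Of the 29 genes, 2 met this in D425 (LGALS3BP and IL6R) and 4 in D458 (LGALS3BP, STAT2, TRIM25 and NFKB2), and NFKB1 was called lower with both in D458.

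With D425 hairpin 8, the effectors that rose beside LGALS3BP did so at low levels: BST2, IFI27, IFI44L, IFI6 and USP18. BST2, which tethers budding virus to the cell surface, stood at 0.585, 0.522 and 0.413 CPM in D425 controls and 0.998, 1.28 and 1.84 with hairpin 8 (1.43 ± 0.44, adjusted p = 0.0303). USP18, which removes ISG15 from proteins and damps the interferon receptor, stood at 0.987, 0.671 and 0.127 CPM in controls and 2.53, 1.83 and 2.08 with hairpin 8 (1.86 ± 0.52, adjusted p = 0.0188). IFI6, an interferon-induced protein of the mitochondrion and endoplasmic reticulum, stood at 0.439, 0.224 and 0.159 CPM in controls and 0.965, 0.549 and 1.43 with hairpin 8 (1.84 ± 0.60, adjusted p = 0.0372). The hairpin 8 libraries lay above all 3 controls for each of these genes.

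IFI27 and IFI44L, commonly used in interferon signatures, had 9 and 15 counts over the D425 controls and 43 and 81 with hairpin 8. The mean of IFI27 went from 0.104 ± 0.0267 to 0.489 ± 0.271 CPM (2.18 ± 0.67, adjusted p = 0.0282), and that of IFI44L from 0.182 ± 0.169 to 0.930 ± 0.583 CPM (2.36 ± 0.71, adjusted p = 0.0269). With D425 hairpin 6 the same 5 genes had changes of 1.24 to 1.62 and were not called (adjusted p = 0.0771 to 0.168). With the replicate block BST2, IFI6 and USP18 passed there (adjusted p = 0.0498, 0.0199 and 0.0184), and IFI27 and IFI44L did not. In D458, IFI44L was called with hairpin 8, with 16, 10 and 8 counts in controls and 91, 34 and 31 with hairpin 8 (2.02 ± 0.63, adjusted p = 0.0295), and IFI44 likewise (6, 1 and 0 and 18, 23 and 6 counts, 2.56 ± 0.81, adjusted p = 0.0314). With D458 hairpin 7, IFI44L had 55, 16 and 15 counts (1.28 ± 0.64, adjusted p = 0.155) and IFI44 18, 5 and 8 (2.06 ± 0.84, adjusted p = 0.0850). IFI44 passed there with the replicate block (adjusted p = 0.0469). IFI6 passed with D458 hairpin 8 only with the replicate block (1.28 ± 0.46, adjusted p = 0.0360). BST2, IFI27 and USP18 were not called in D458, where their changes ran from -0.89 to 0.27.

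ISG15, the ubiquitin-like protein that interferon induces most broadly, was not called with any hairpin. It had 9, 9 and 3 counts in D425 controls, 10, 8 and 20 with hairpin 6 and 4, 13 and 16 with hairpin 8. In D458 it had 0 counts in all 3 controls, 1, 3 and 0 with hairpin 7 and 4, 1 and 0 with hairpin 8. IFITM3, which blocks virus entry at membranes, stood at 32.3 ± 9.10 CPM in D425 controls and changed by 0.48 ± 0.25 and 0.38 ± 0.25, neither called. IFITM1 changed by 1.24 ± 0.53 and 1.44 ± 0.53 in D425, and IFI35, an interferon-induced leucine zipper protein, by -0.14 to 0.31 over the 4 comparisons, none called without the block. IFITM1 passed with the block for D425 hairpin 8 (adjusted p = 0.0360). In edgeR, IFITM2 was called in all 4 hairpin comparisons with the replicate block and in none without it, and DESeq2 without the block called it with both D458 hairpins (adjusted p = 0.0193 and 0.0183). In D458 it had few counts: 3 over the controls, 21 with hairpin 7 and 23 with hairpin 8, where replicate 3 stood at 0. The ratios were 6.94-fold (exact 95% counting interval 2.07 to 36.4) and 7.02-fold (interval 2.12 to 36.5). The IFITM genes are close copies, so their shares of the reads are uncertain.

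**Figure D3:**
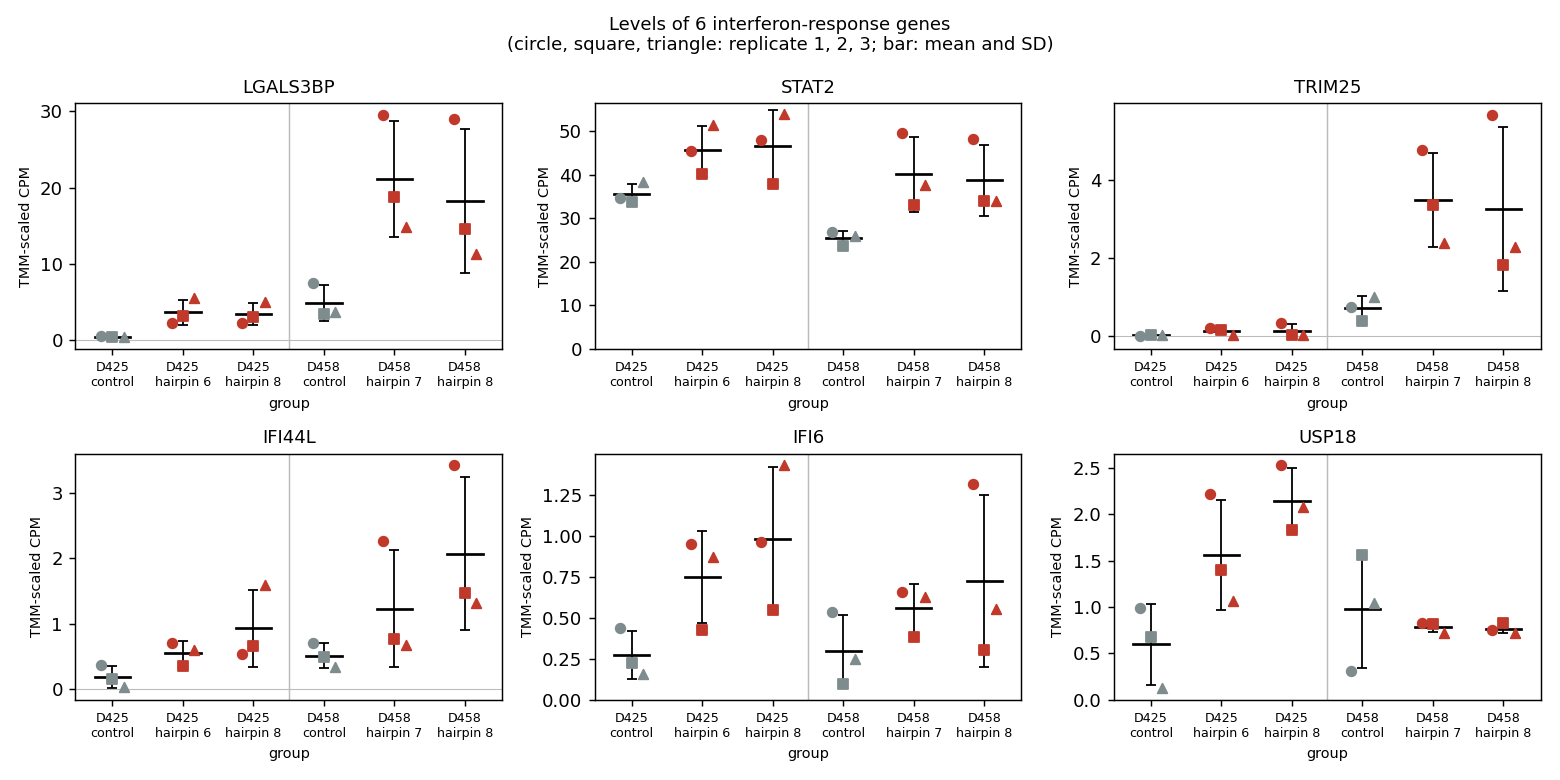
TMM-scaled CPM (y axis) of 6 interferon genes in the 6 groups (x axis), with 1 symbol per replicate number, the mean as a line and the SD as bars. LGALS3BP is above its controls in all 12 EYA2 hairpin libraries, TRIM25 is near 0 in D425, and USP18 is above its controls in D425 with hairpin 8 and within the range of its controls in D458.

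Many of these calls were lost when a single library was left out. Such a fit has fewer samples for every gene, so a lost call does not show that it rested on that library. The shares of all genes called were not counted for these fits, so the counts below have no background beside them. Of the 11 with D425 hairpin 8, LGALS3BP and IL6R remained whichever library was left out, and the other 9 were each lost without at least 1 library. Leaving out control replicate 3 gave 2 calls, control replicate 2 gave 3, replicate 1 of hairpin 8 gave 5, and either control replicate 1 or replicate 3 of hairpin 8 gave 7. Without control replicate 3 all 9 were lost, without control replicate 2 all but USP18, and without hairpin 8 replicate 1 all but BST2 and IFI44L. Control replicate 1 cost the calls of DDX58, IFI27, IRF3 and NFKB1, hairpin 8 replicate 3 those of BST2, DDX58, IFI44L, IFI6 and NFKB1, and hairpin 8 replicate 2 those of IRF3 and NFKB1. LGALS3BP alone remained throughout in D458. With hairpin 7 the count was 1 without hairpin 7 replicate 1, 2 without control replicate 2 and 3 without control replicate 3. With hairpin 8 it was 1 without hairpin 8 replicate 1, 2 without control replicate 2 and 3 without control replicate 3. The D458 hairpin 8 call of IFI44L was lost without any of the control libraries or hairpin 8 replicate 1, and that of IFI44 without control replicate 2 or 3 or hairpin 8 replicate 1 or 2.

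Of the 9 tested genes of the NF-kB group, 1 was called with D425 hairpin 6 and 3 with D425 hairpin 8, all higher, and 1 higher and 1 lower with each D458 hairpin. IL6R, the interleukin 6 receptor, rose with both D425 hairpins. It had 7, 3 and 0 counts in D425 controls, 37, 36 and 71 with hairpin 6 and 54, 30 and 64 with hairpin 8, which is 0.256, 0.112 and 0 CPM, 1.46, 1.40 and 2.37 CPM and 1.80, 1.10 and 2.18 CPM. All 6 hairpin libraries lay above the controls (3.83 ± 0.74, adjusted p = 0.00281, and 3.78 ± 0.74, adjusted p = 0.00217). No D458 library held more than 4 counts of it. The calls in D425 were lost without replicate 2 or without replicate 3 of every group (adjusted p = 0.059 to 0.131).

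NFKB2, which encodes the p100 precursor of the p52 subunit, rose with both D458 hairpins. Its levels were 17.5, 15.8 and 15.4 CPM in D458 controls, 33.3, 22.6 and 24.5 with hairpin 7 and 37.4, 22.9 and 26 with hairpin 8. No library of the hairpin groups overlapped the controls (0.73 ± 0.22, adjusted p = 0.0257, and 0.83 ± 0.22, adjusted p = 0.0134). The hairpin 7 call was lost without control replicate 2 or 3 or hairpin 7 replicate 1, and the hairpin 8 call without control replicate 3 or hairpin 8 replicate 1 (highest adjusted p = 0.143 and 0.0879). In D425 it stood at 28.6, 26.7 and 24 CPM in controls, 40.0, 32.7 and 35.9 with hairpin 6 and 52.8, 27.7 and 36.1 with hairpin 8 (0.45 ± 0.21, adjusted p = 0.174, and 0.56 ± 0.21, adjusted p = 0.0700), and passed with the replicate block (adjusted p = 0.0161 and 0.00504). DESeq2 without the block called the hairpin 8 change (adjusted p = 0.0489).

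NFKB1, which encodes the p105 precursor of the p50 subunit, changed in opposite directions in the lines. In D458 it fell, from 35, 39 and 38.5 CPM in controls to 26.7, 28.3 and 30.9 with hairpin 7 and 24.8, 30.6 and 31.3 with hairpin 8 (-0.39 ± 0.10, adjusted p = 0.0155, and -0.38 ± 0.10, adjusted p = 0.0178). In D425 it stood at 13.8, 13.3 and 13.1 CPM in controls and 15.2, 17.6 and 14.1 with hairpin 6 (0.22 ± 0.11, adjusted p = 0.198), and rose to 17.6, 16.7 and 16.3 with hairpin 8 (0.33 ± 0.11, adjusted p = 0.0359). In each of these 4 comparisons the groups did not overlap. The test of the difference itself, the hairpin 8 change in D458 minus that in D425, gave -0.71 ± 0.15 (adjusted p = 0.00687), and this call remained whichever single library was left out. It was lost without replicate 2 or replicate 3 of every group (adjusted p = 0.144 and 0.110). The hairpin 8 call in D425 was lost without any of its 6 libraries, and the D458 calls without control replicate 2 or 3 or without replicate 1 of the hairpin group (highest adjusted p = 0.122, 0.0948 and 0.128). NFKB1 was the 1 call of 29 in that test, in which 11.8% of all genes were called (6.19% higher and 5.65% lower), and with the replicate block 8 were called (26.5% of all genes). The 7 added were IFIH1, IRF3 and IRF9 as higher and LGALS3BP, NFKBIA, TNFAIP3 and USP18 as lower, with blocked adjusted p of 0.0147 to 0.0475.

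TNFAIP3, the NF-kB inhibitor A20, rose with D425 hairpin 8 and varied with the replicate number. It stood at 2.05, 1.34 and 0.794 CPM in D425 controls, 14.4, 4.12 and 2.67 with hairpin 6 and 34.2, 2.67 and 3.20 with hairpin 8. All 6 hairpin libraries were above the controls, and replicate 1 of hairpin 8 was far above the other 2. The changes were 2.34 ± 0.86 (adjusted p = 0.0840) and 3.27 ± 0.87 (adjusted p = 0.0153). DESeq2 also called the hairpin 6 change (adjusted p = 0.0337), as did edgeR with the replicate block (adjusted p = 0.00321). The hairpin 8 call was lost without control replicate 2 or 3 or hairpin 8 replicate 1 (highest adjusted p = 0.232). Without replicate 1 of every group they were 1.68 ± 0.32 (adjusted p = 0.002) and 1.47 ± 0.32 (adjusted p = 0.00424), so both passed there at a smaller size. In D458 TNFAIP3 changed by 0.62 ± 0.86 and 0.54 ± 0.86, neither called, and the difference between the lines with hairpin 8 gave -2.73 ± 1.21 (adjusted p = 0.156). That difference passed with the replicate block (-2.10 ± 0.62, adjusted p = 0.0255).

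RELB, which pairs with p52 in the alternative NF-kB pathway, showed the same dependence on replicate 1 in both lines. Its counts in D425 were 64, 56 and 36 in controls, 181, 54 and 81 with hairpin 6 and 380, 72 and 97 with hairpin 8. In D458 they were 12, 11 and 9 in controls, 79, 26 and 19 with hairpin 7 and 102, 16 and 29 with hairpin 8. Against the same-numbered control, replicate 1 was 3.06-fold and 5.40-fold higher in D425 and 6.10-fold and 7.20-fold higher in D458, while replicates 2 and 3 were 1.00-fold to 3.28-fold. RELB was not called in any hairpin comparison by edgeR without the block (adjusted p = 0.0833 to 0.326), and with the replicate block it passed with D425 hairpin 8, D458 hairpin 7 and D458 hairpin 8 (adjusted p = 0.00478, 0.0112 and 0.00844). DESeq2 called it in the same 3 comparisons without the block (adjusted p = 0.0439, 0.0346 and 0.0240).

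ICAM1, an adhesion molecule and NF-kB target, stood at 5.78, 8.54 and 7.08 CPM in D425 controls, 16.7, 11.2 and 11.3 with hairpin 6 and 34.3, 10.7 and 8.65 with hairpin 8, again highest in replicate 1, and was not called (0.87 ± 0.49, adjusted p = 0.270, and 1.33 ± 0.49, adjusted p = 0.0648). Replicate 1 of every group carries an earlier date in the labels than replicates 2 and 3, and the part of that date in these values was not tested. BIRC3, an inhibitor of apoptosis, was called only with the block, with D425 hairpin 8 (1.43 ± 0.49, adjusted p = 0.0301). RELA and NFKBIA, the main activating subunit and its inhibitor, were not called with any hairpin. Their changes ran from -0.01 to 0.17 for RELA and from -0.19 to 0.22 for NFKBIA.

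**Figure D4:**
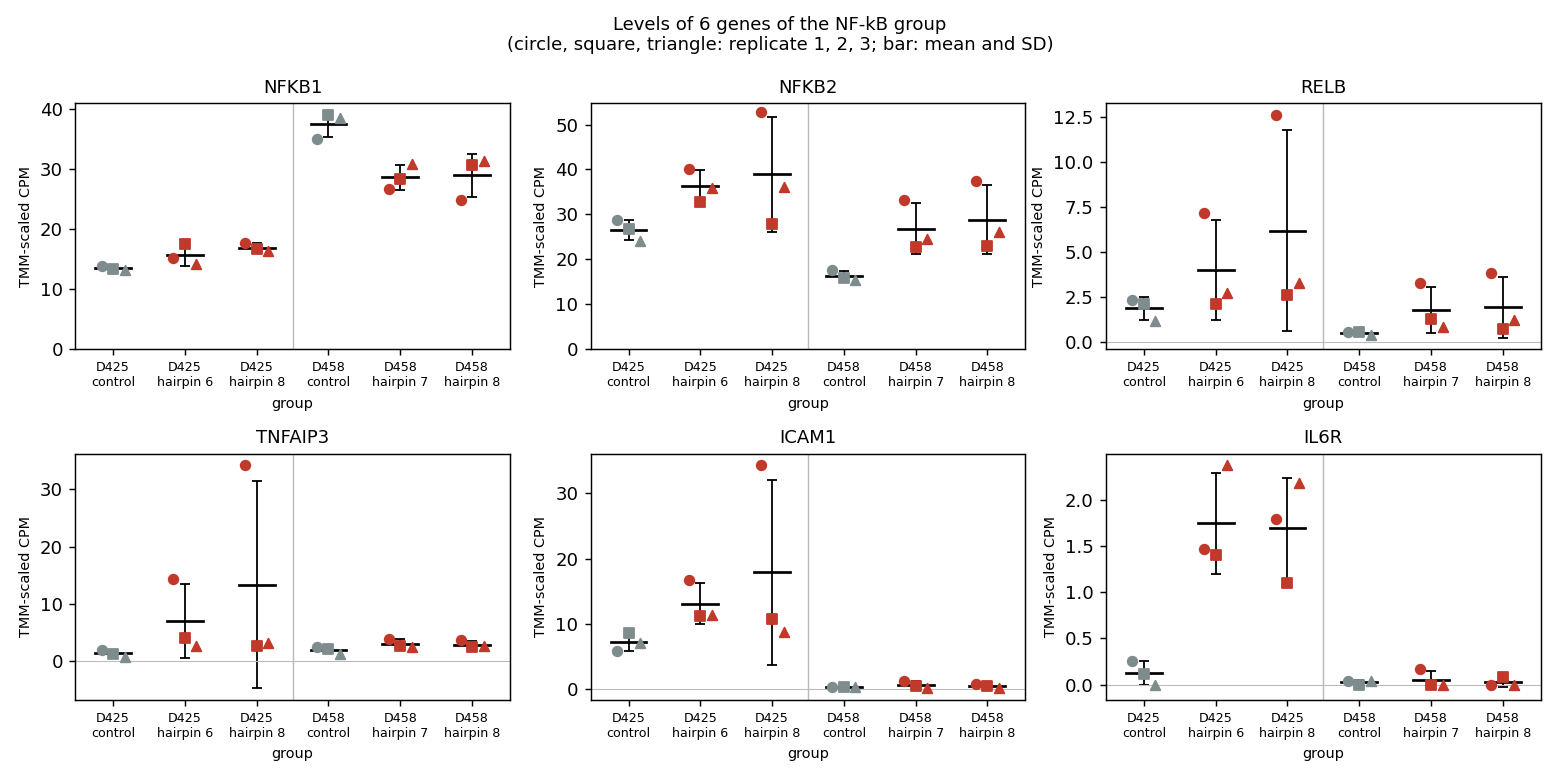
TMM-scaled CPM (y axis) of 6 genes of the NF-kB group in the 6 groups (x axis), with 1 symbol per replicate number, the mean as a line and the SD as bars. Replicate 1 (circles) stands highest for RELB, TNFAIP3 and ICAM1 in the hairpin groups of D425, NFKB1 lies below its controls in D458 and above them in D425, and IL6R is near 0 in D458.

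Leaving out a replicate number moved the counts of calls. Without replicate 1, 7 of the tested genes were called with D425 hairpin 6, 9 with D425 hairpin 8, 6 with D458 hairpin 7 and 5 with D458 hairpin 8, beside 23.3%, 28.1%, 18.6% and 15.1% of all genes. Without replicate 2 the counts were 0, 0, 0 and 1, beside 0.77%, 5.83%, 4.56% and 5.43% of all genes. Without replicate 3 they were 0, 1, 2 and 2, beside 0.902%, 3.43%, 4.43% and 6.13%.

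No tested gene of the set was called between the hairpins of a line. None of the 29 was called between hairpins 8 and 6 in D425 or between hairpins 8 and 7 in D458 with edgeR or with DESeq2, and edgeR called 0% of all 14850 genes. At an unadjusted p under 0.05 the counts in edgeR were 0 and 1 (IFITM3 in D458, -0.74 ± 0.34). These comparisons leave room for differences, with 95% intervals of -0.997 to 0.84 and -1.05 to 0.64 for LGALS3BP, and -0.72 to 2.57 for TNFAIP3 in D425. EYA2 itself changed by -1.24 between hairpins 8 and 7 in D458. It was not called in the full edgeR fit, and passed in edgeR with the replicate block (adjusted p = 0.0110) and in DESeq2 (adjusted p = 0.0144).

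Between the control cells of the lines, 5 of the 29 genes were higher and 13 lower in D458 than in D425. That is 62.1%, close to the 62.8% of all genes, so the count does not set these genes apart. IFITM3 stood at 31.9, 41.5 and 23.3 CPM in D425 controls and 1.69, 1.22 and 1.29 in D458 controls (-4.52 ± 0.33, adjusted p = 6.08e-09). IFITM2 had 571 counts over the D425 controls and 3 over the D458 controls, a 149-fold ratio (exact 95% counting interval 50.7 to 724), and IFITM1 28 and 1 (21.9-fold, interval 3.62 to 895). ISG15, at 21 and 0 counts, was at least 1.82-fold higher in D425. IFI35 and ICAM1 were lower in D458 as well (-2.61 ± 0.30, adjusted p = 1.22e-06, and -4.79 ± 0.71, adjusted p = 2.16e-05), as was IFIH1, with 31 counts in D425 and 2 in D458.

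Several signalling genes were lower in D458 controls by less: IRF1 (-1.20 ± 0.32), IRF9 (-0.55 ± 0.21), STAT2 (-0.48 ± 0.17), IRF3 (-0.45 ± 0.11), RELA (-0.53 ± 0.07) and NFKB2 (-0.71 ± 0.22). The 5 genes that were higher in D458 controls were LGALS3BP (3.38 ± 0.54, adjusted p = 4.4e-05), NFKB1 (1.48 ± 0.11, adjusted p = 4.38e-09), EIF2AK2 (0.71 ± 0.14), NFKBIA (0.44 ± 0.14) and TRIM25, with 49 counts against 2 (31.4-fold, exact 95% counting interval 8.23 to 266). Left out singly, the libraries of the 2 groups cost the calls of IRF9, STAT2 or NFKBIA and no other. D425 control replicate 3 cost all 3 of these, D458 control replicate 2 IRF9 and STAT2, D425 control replicate 1 and D458 control replicate 3 IRF9, and D458 control replicate 1 NFKBIA.

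**Figure D5:**
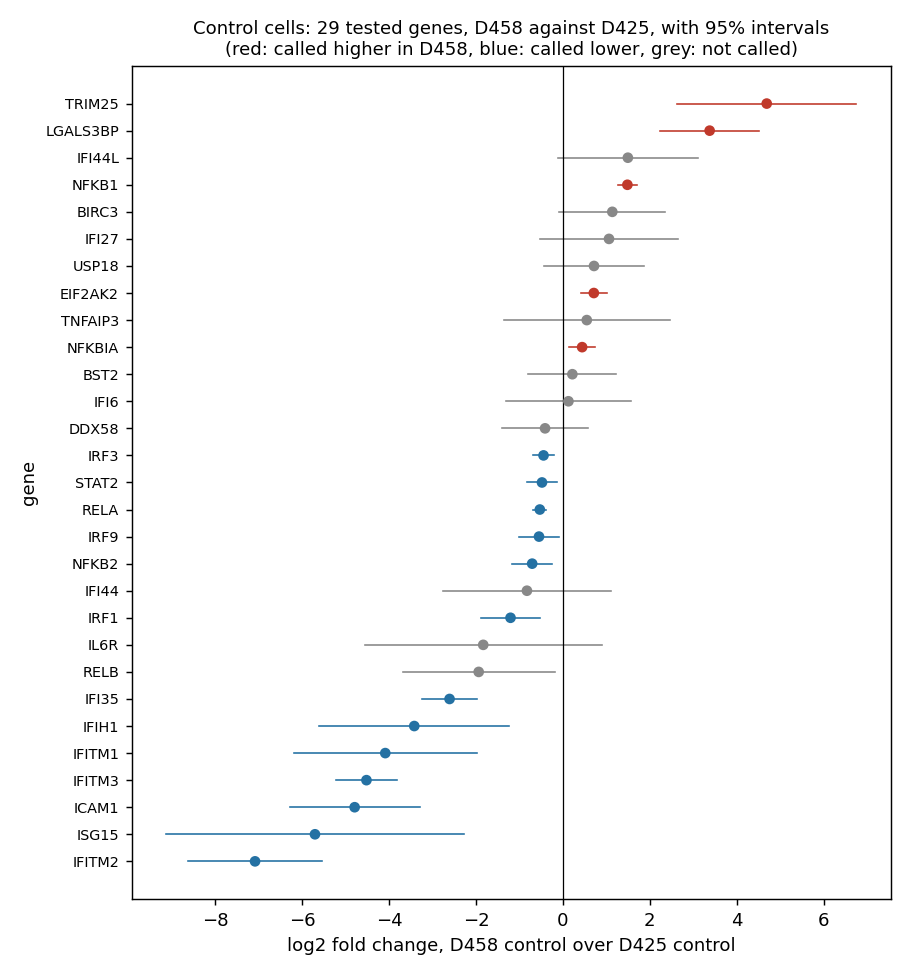
Log2 fold change of the 29 tested genes in D458 control cells over D425 control cells (x axis, with 95% intervals), sorted by size (y axis). Red marks the 5 genes called higher in D458 and blue the 13 called lower, with IFITM2, ISG15, ICAM1 and IFITM3 at the low end. The fitted values of genes with 0 to 3 counts in a group, such as ISG15, depend on the prior count of the fit and are no bounds.

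The wider pathways were read from 3 lists of genes outside the 47. Of 26 tested further interferon-stimulated genes, 3 were called higher and 1 lower with each D425 hairpin, 5 higher and 3 lower with D458 hairpin 7, and 5 higher and 2 lower with D458 hairpin 8, with median log2 changes of 0.06, 0.15, 0.37 and 0.20. The called shares were 15.4%, 15.4%, 30.8% and 26.9%, beside 14.1%, 21.7%, 22.6% and 23.2% of all genes. GBP2, a guanylate-binding protein induced by interferon gamma, rose in all 4, from 0.292 ± 0.209 to 1.49 ± 0.622 and 1.44 ± 0.516 CPM in D425 (2.39 ± 0.48, adjusted p = 0.00357, and 2.33 ± 0.48, adjusted p = 0.00302) and from 8.98 ± 1.87 to 18.2 ± 4.07 and 19.9 ± 4.21 CPM in D458 (1.02 ± 0.32, adjusted p = 0.0309, and 1.15 ± 0.32, adjusted p = 0.0176). UBE2L6, the enzyme that conjugates ISG15, rose in D458 (1.52 ± 0.34, adjusted p = 0.00557, and 1.68 ± 0.33, adjusted p = 0.00276). ADAR, which edits double-stranded RNA, and SAMHD1, a nucleotide hydrolase, fell in D458 (-0.29 ± 0.06 and -0.27 ± 0.06, and -0.57 ± 0.16 and -0.67 ± 0.16).

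Of 25 tested receptors, sensors and signalling genes of the interferon pathway, 2, 2, 1 and 2 were higher and 0, 1, 2 and 1 lower, listed as D425 (hairpins 6, then 8) and then D458 (hairpins 7, then 8). The called shares of 8%, 12%, 12% and 12% were below those of all genes in each comparison. STAT3 rose in D458 (0.49 ± 0.10, adjusted p = 0.00385, and 0.46 ± 0.10, adjusted p = 0.00500) and IFNGR1, an interferon gamma receptor chain, in D425 (0.34 ± 0.10, adjusted p = 0.0284, and 0.31 ± 0.10, adjusted p = 0.0335). PTPN6, a phosphatase that damps cytokine receptors, fell in D458 from 1.72 ± 0.292 CPM to 0.373 ± 0.105 and 0.205 ± 0.170. TRAF3, an adaptor of interferon induction, fell with D458 hairpin 7 (-0.26 ± 0.08, adjusted p = 0.0241).

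Of 44 tested further NF-kB genes, 6, 10, 4 and 5 were higher and 2, 2, 2 and 3 lower in the same order, with median changes of 0.14, 0.19, 0.10 and 0.14. The called shares were 18.2% and 27.3% in D425 and 13.6% and 18.2% in D458, beside 14.1%, 21.7%, 22.6% and 23.2% of all genes. Among 44 genes these gaps are a few calls, so no contrast between the lines is read from them. CCL2, a monocyte chemokine and NF-kB target, rose in D425 from 2.43 ± 0.970 to 14.5 ± 4.70 and 18.9 ± 4.69 CPM (2.58 ± 0.35, adjusted p = 0.00111, and 2.96 ± 0.35, adjusted p = 0.000356) and had 0 counts in all 9 D458 libraries. CD83, an activation marker, rose in D458 (2.22 ± 0.29, adjusted p = 0.000151, and 2.16 ± 0.29, adjusted p = 0.000193) and was not called in D425 (-0.00 ± 0.24 and 0.03 ± 0.24). TRAF2, an adaptor of the TNF receptor, and SDC4, a cell surface proteoglycan, fell in D425 (-0.78 ± 0.11, adjusted p = 0.000383, and -0.98 ± 0.11, adjusted p = 4.98e-05, and -0.84 ± 0.13, adjusted p = 0.000701, and -0.72 ± 0.13, adjusted p = 0.00120). TRAF2 was also called lower with D458 hairpin 8 (-0.32 ± 0.11, adjusted p = 0.0476) and not with D458 hairpin 7 (-0.29 ± 0.11, adjusted p = 0.0758). SDC4 was not called in D458.

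Markers of other cells were read beside these values. The 5 fibroblast genes summed to 16.1 to 30.2 CPM in D425 controls, 35.2 to 71.8 with hairpin 6 and 43.5 to 73.0 with hairpin 8, and to 6.89 to 8.44, 34.3 to 55.4 and 32.1 to 60.9 CPM in D458. They thus moved with the hairpins, with 2 of 4 tested called higher in both D425 comparisons and 4 of 4 in both D458 comparisons. The 4 tested genes changed by 2.06 to 3.57 with D458 hairpin 7 and by 1.82 to 3.43 with D458 hairpin 8. In D425 they changed by -0.93 to 4.43 with hairpin 6 and by 0.13 to 5.04 with hairpin 8. The untested gene of the list, COL1A2, stood at 0.182, 0.261 and 0.380 CPM in D425 and 0.226, 0.309 and 0.134 CPM in D458. The part of these genes' change in the results above was not tested. The 8 leukocyte markers summed to 3.99 to 9.81 CPM, with PTPRC called higher with D458 hairpin 7 (1 count in the D458 controls and 13 with hairpin 7), the 4 astrocyte markers to at most 1.34 CPM and the 4 endothelial markers to at most 6.09 CPM. The endothelial sum was mostly KDR, which rose with both D425 hairpins (1.06 ± 0.31 and 1.33 ± 0.31), while CDH5 stood at 0 to 8 counts per group.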

How the data were processed

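PolyA RNA of 18 libraries was sequenced from stranded TruSeq libraries, per the labels' protocols. The submitters' processing notes list HTSeq, TopHat2 and Bowtie2, and also Picard, SAMtools, FastQC and bcl2fastq and the builds GRCh37 and hg19. The deposited values are raw read counts per gene symbol that the authors made, with no normalization. The strand setting of the counting is not given in the sources used here, so overlapping and antisense genes were not separated, and close copies such as the IFITM genes may share reads.

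Counts were tested with edgeR 4.0.16 (limma 3.58.1, R 4.3.3): TMM scaling, filterByExpr with a minimum count of 10, robust quasi-likelihood fits with 1 coefficient per group over all 18 libraries, and Benjamini-Hochberg adjustment over 14850 genes, 10519 having been removed. A gene was called at an adjusted p under 0.05. Standard errors are the fold change divided by the square root of F. The scripts were tested on simulated counts. Fold changes of sums of 3 counts or fewer are given with exact 95% intervals, or against a floor of 3 counts per library, and cover counting error only. Alternatives were DESeq2 1.42.0, its size factors, no filter, only the libraries of the line, each library or replicate number left out, and the replicate number as a block within each line. Promoter windows and the shared word came from a RefSeq table of build GRCh38.p14, read with Python 3.11.15 and pandas 2.3.3.

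Same-numbered libraries share a run label, and replicate 1 has an earlier date. The deviations of same-numbered libraries from their group means correlated at 0.084 to 0.608 in D425 (mean 0.296, against -0.143 for different numbers) and at 0.127 to 0.700 in D458 (mean 0.347, against -0.165), over 9 pairs per line. The pairing comes from these labels. For EYA2 and the tested genes of the set, a call that the block changes has its blocked value beside it. Otherwise the gene is named among those that the block added. Genes of the pathway, hairpin-processing and marker lists are given from the full fit only. Their calls are not shown with the block or with libraries left out. Both hairpin comparisons of a line share the same 3 controls. The genes, lists and tests were chosen with earlier results of these data known. Genes called with both hairpins of a line are described library by library, those called with 1 by group or library values, and those under the filter by raw counts. From each pathway list, up to 4 called genes with the smallest adjusted p were named.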

Additional observations from a re-analysis of the deposited data

Results flagged for a closer look

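NFKB1 differed between the lines in its change with hairpin 8, by -0.71 ± 0.15 on the log2 scale (D458 minus D425, edgeR adjusted p = 0.00687). It was picked out because the difference itself passed the test. All 3 hairpin 8 libraries were below every control in D458 and above every control in D425.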

How the results depend on the processing

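With the replicate number as a block within each line, the count of called genes moved from 2 to 11 for D425 hairpin 6, from 11 to 18 for D425 hairpin 8, from 6 to 10 for D458 hairpin 7 and from 1 to 8 for the hairpin 8 change between the lines, and the block lost no call. DESeq2 called 2 in that last comparison, and its share of all genes was not counted. The shares of all genes called by edgeR rose with the block as well, as given above. The cause of these moves was not tested. No paired analysis was run for the control lines, because the blocks were set within each line. Over the fits that left out 1 library or 1 replicate number, the counts ran from 0 to 7 for D425 hairpin 6, 0 to 12 for D425 hairpin 8, 0 to 7 for D458 hairpin 7, 1 to 8 for D458 hairpin 8, 0 to 2 for the change between the lines and 12 to 20 for the control lines, and stayed at 0 between the hairpins of a line. A fit without 1 library or replicate number has fewer samples. The shares of all genes moved as well, from 0.77% to 23.3% for D425 hairpin 6 over the fits without a replicate number. For the fits without 1 library they were not counted, so these ranges do not set the genes apart. None of the named results for EYA2 and the tested genes of the set reversed under any alternative run. The counts that follow cover these results and not the genes of the other lists. Of the results called in the full fit, 50 kept their call with DESeq2, 50 with its size factors, 48 without the filter (2 lost), 31 with the block and 22 with only the line's libraries (7 lost). Over the fits without 1 library, 224 values kept their call and 82 lost it, and over those without a replicate number 77 kept it and 70 lost it. With counts this low, a gene at 0 could hold up to 3 counts, or 0.147 CPM at most.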

Other observations

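Of 14 tested genes that make and use short hairpin RNA, 11 and 12 had log2 changes below 0 with D458 hairpins 7 and 8, beside 48.8% and 48.5% of all genes. Of these 14, 6 were called lower with D458 hairpin 7 and 5 with D458 hairpin 8, none higher, with medians of -0.24 and -0.23. These are 42.9% and 35.7% of the list, beside 11.1% of all genes called lower in each comparison. That background is not matched for level. Among the 9448 genes at 10 CPM or more, 1460 and 1477 were called lower, and the levels of the 14 are not given here. In D425, 0 were called with hairpin 6 by edgeR, and 1 higher and 2 lower with hairpin 8. TARBP2, a partner of Dicer, fell with D425 hairpin 8 (-0.39 ± 0.08, adjusted p = 0.00301) and in D458 (-0.34 ± 0.08, adjusted p = 0.00893, and -0.37 ± 0.08, adjusted p = 0.00583). XPO5, which exports hairpin precursors from the nucleus, fell in D458 (-0.33 ± 0.07, adjusted p = 0.00584, and -0.36 ± 0.07, adjusted p = 0.00348), as did TNRC6A, a partner of Argonaute proteins (-0.37 ± 0.10, adjusted p = 0.0151, and -0.33 ± 0.10, adjusted p = 0.0256). DICER1, the enzyme that cuts the hairpin, rose with D425 hairpin 8 (0.38 ± 0.13, adjusted p = 0.0441) and fell with D458 hairpin 7 (-0.42 ± 0.13, adjusted p = 0.0301).

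The cytokine genes TNF and CXCL10 were read by their counts after the values had been seen. TNF, an activator of NF-kB, had 8 counts over the 3 D425 control libraries, 35 with hairpin 6 and 74 with hairpin 8, and 0, 6 and 6 in the D458 groups. CXCL10, a chemokine induced by interferon gamma, had 6, 25 and 50 counts in the D425 groups and 2, 5 and 2 in D458. These are sums over the libraries of a group, given without a test, and they do not show the spread between replicates.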
